A study of Homo sapiens with 3 samples.

Results

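Intergenic cutting control guides are the reference of a Cas9 knockout screen. Each directs the nuclease to DNA between genes, so the cell carries the virus, the Cas9 cut and its repair, but no disrupted gene. A pool of such guides shows how far guide abundance moves in a culture when no gene is lost, which gives both the zero of a fitness scale and the width against which gene-targeting guides are read. The abundance of a guide is measured by amplifying and sequencing the guide cassette integrated in the genome, and it drifts when few cells carry a guide, because each passage and each DNA sample takes only a part of the culture. MIA PaCa-2, the cell line used here, derives from a human pancreatic ductal adenocarcinoma and is aneuploid.

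The control guides were taken as all guides whose gene name begins with INTERGENIC, with no minimum count. Of 30197 guides in the library, 1.65% were control guides, made up of 12 with under 100 counts in the initial population and 487 with 100 or more, and each stood under a gene name of its own, so a control "gene" holds 1 guide. The remaining 29698 guides target metabolic genes. Neither their sequences nor their genomic positions were used here, since the count tables give names only. The study's methods call the guides that set the zero of its scale non-targeting, whereas the control guides in these tables carry the intergenic name.

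Pools of MIA PaCa-2 cells transduced with the library and selected with puromycin were sequenced. One pool had grown for 14 days in apilimod, which blocks the phosphoinositide kinase PIKfyve. Its sample label gives 200 nM, a dose that differs from the one in the study's methods and is therefore uncertain. One had grown for 14 days in the solvent DMSO, and one was the initial population at day 0, with no treatment. The libraries held 25599416 counts in apilimod, 26276517 in DMSO and 24695476 in the initial population. There was 1 library per group, so no spread between cultures could be measured, no difference below has a replicate check, and no p-value is given. Intervals are over guides or over counts within a library and cover that error only.

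Control guides were more abundant than gene-targeting guides in every library, already at day 0. With 1.65% of the guides, they took 3.38% of the counts in apilimod (exact 95% binomial interval 3.37 to 3.39), 3.16% in DMSO (3.16 to 3.17) and 2.82% in the initial population (2.81 to 2.83). The median control guide had 1479 counts in apilimod, 1336 in DMSO and 1151 in the initial population. The median gene-targeting guide had 647, 655 and 645 counts in the same libraries. The ratio of the medians, control over gene-targeting, was thus 2.29 in apilimod, 2.04 in DMSO and 1.78 at day 0.

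No control guide was lost from any library, since the lowest had 32 counts in apilimod, 15 in DMSO and 26 in the initial population. Among gene-targeting guides 306 were at 0 counts in apilimod, 263 in DMSO and 72 at day 0. The highest control guide reached 7982, 8603 and 7006 counts in the 3 libraries. The 5th percentile of the control guides lay at 300.4 counts in apilimod, 172.7 in DMSO and 167.1 at day 0, and 6, 14 and 12 control guides had fewer than 100 counts. The Gini index, a measure of unevenness that is 0 when all guides are equal, was 0.365 over the control guides in apilimod, 0.412 in DMSO and 0.406 at day 0. Over gene-targeting guides it was 0.444, 0.452 and 0.419. Control guides were therefore more even in apilimod than in the initial library, and gene-targeting guides less even.

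The 5 control guides nearest to the median initial count differed in how far they moved relative to day 0. INTERGENIC432928 had 2444 counts in apilimod, 1587 in DMSO and 1151 at day 0. INTERGENIC590606 had 1687, 1593 and 1154 counts, and INTERGENIC576573 had 1562, 1539 and 1133. Both were about equally high in the 2 cultures grown for 14 days. INTERGENIC427243 had the same count of 1357 in both, against 1135 at day 0. INTERGENIC1251869 was the one of these 5 guides below its initial count in DMSO, with 1532 counts in apilimod, 1126 in DMSO and 1172 at day 0.

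Drift was measured as the log2 ratio of depth-normalized counts, with 1 count added to each guide before division by the library total. Since every count is divided by that total, a change is relative to all other guides of the library. In DMSO the control guides lay slightly above their initial level, with a median log2 change of 0.14 (95% interval over guides 0.10 to 0.17), a fold of 1.10. In apilimod their median was 0.24 (0.18 to 0.28), a fold of 1.18. Among control guides, 350 were above 0 in apilimod and 326 in DMSO, which is 70.1% and 65.3%, while 49.1% and 50.5% of all guides were. Both comparisons share the initial library.

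Gene-targeting guides had medians of -0.02 in apilimod and 0.00 in DMSO, so the control median lay 0.25 and 0.13 above theirs on the log2 scale. Guides against genes that cells need are lost from such cultures, so guides against 49 genes known for their roles in other tissues were set beside the controls as well. These genes include CYP7A1, the rate-limiting enzyme of bile acid synthesis in liver, TH, the tyrosine hydroxylase of catecholamine neurons, RPE65, the retinoid isomerase of the eye, and ATP4A, a subunit of the gastric proton pump. The list was chosen with earlier results of these data known. Whether MIA PaCa-2 cells express these genes was not measured here. The median of their 490 guides was 0.01 in apilimod (-0.05 to 0.10) and 0.08 in DMSO (0.00 to 0.13). The control median was 0.22 higher in apilimod and 0.06 higher in DMSO. The interval of the control median did not overlap that of the tissue-restricted guides in apilimod, and overlapped it in DMSO. These sets differ in initial count, however. From 1000 initial counts on, the control median was 0.13 (0.09 to 0.18) in apilimod and 0.16 (0.12 to 0.19) in DMSO. The 126 tissue-restricted guides of this range had -0.07 (-0.18 to -0.003) and 0.01 (-0.09 to 0.10). In that range the intervals did not overlap in either culture.

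The spread among control guides differed much more between the cultures than the median did. Its SD on the log2 scale was 0.85 in apilimod and 0.43 in DMSO over all control guides, a ratio of 1.97. For gene-targeting guides the SDs were 1.11 and 0.92, a ratio of 1.21, and for the tissue-restricted guides 0.91 and 0.70, a ratio of 1.30. Counting error alone would give the control guides a root-mean-square SD of 0.08 in apilimod and 0.09 in DMSO, so the measured SDs were 10.9 and 5.04 times that floor. The floor assumes independent molecules, which PCR reads are not.

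Over all control guides, the excess in apilimod was largest in the upper tail. The central 95% of control guides ran from -0.88 to 2.99 in apilimod and from -0.88 to 0.88 in DMSO. The lower limits were alike to 2 decimals, and the upper limits were not. Measured from the median, the lower limit lay 1.12 away in apilimod and 1.01 in DMSO, and the upper limit 2.75 and 0.74. From 1000 initial counts on, the lower limit was -0.66 in apilimod and -0.48 in DMSO, so there the lower side was wider too. With the SD estimated from the middle of the distribution instead (the interquartile range, scaled to equal the SD of a normal distribution), control guides had 0.48 in apilimod and 0.36 in DMSO. By this measure tissue-restricted guides had 0.65 and 0.50, and gene-targeting guides 0.65 and 0.56. The middle of the distribution was thus wider in apilimod in all of these sets.

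Counts past a 2-fold change give the same asymmetry. In apilimod 67 control guides were over 2-fold higher than at day 0, or 13.4% (exact 95% binomial interval over guides 10.6 to 16.7), against 7.20% of all guides. Only 10 control guides, 2.00%, were over 2-fold lower, against 12.2% of all guides. In DMSO 4 control guides were over 2-fold higher, 0.80%, against 2.73% of all guides, and 8 were over 2-fold lower, 1.60%, against 10.7%. Control guides were thus less often past 2-fold than the library as a whole in 3 of these 4 counts, and more often in the count of higher guides in apilimod. Control guides had higher initial counts than the library as a whole, so these shares do not compare guides of like abundance. In DMSO 13.3% of gene-targeting guides under 200 initial counts were over 2-fold higher, and 0.13% from 1000 on. At 4-fold, 31 control guides were higher and 2 lower in apilimod, with 0 higher and 1 lower in DMSO. Of those higher in apilimod, 19 were among the 32 control guides under 200 initial counts and 12 among the other 467. Beside them, 526 of 3834 and 54 of 25864 gene-targeting guides of these ranges were over 4-fold higher. In DMSO 58 and 0 of the same gene-targeting guides were. The 2.5th percentile of all guides, -2.65 in apilimod and -2.41 in DMSO, was itself past 4-fold lower.

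The ratio of apilimod to DMSO leaves the initial library out. Its median over control guides was 0.02 (-0.03 to 0.05), close to 0, and its SD was 0.94, as large as that of gene-targeting guides, also 0.94. The SD from the interquartile range was 0.46 for control guides and 0.55 for gene-targeting guides. The initial counts of these sets differ, so the SDs over all guides do not compare guides of like abundance. For this ratio 63 control guides were over 2-fold higher in apilimod, 12.6% (9.84 to 15.9), against 8.65% of all guides, and 6 were over 2-fold lower, 1.20%, against 5.92%. The distance from the median to the upper limit of the central 95% was 3.82 times the distance to the lower limit.

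Sorting the control guides by their initial count showed where the upper tail lay. For the 12 guides under 100 initial counts, the median log2 ratio of apilimod to DMSO was 3.86 (95% interval over guides 1.65 to 4.50). It was 1.60 for the 20 guides with 100 to under 200 counts (0.52 to 2.82), 0.15 for the 70 guides with 200 to under 500 (-0.01 to 0.32) and 0.07 for the 115 guides with 500 to under 1000 (-0.06 to 0.30). For the 167 guides with 1000 to under 2000 counts it was -0.02 (-0.12 to 0.03), and for the 115 guides with 2000 and over -0.07 (-0.11 to 0.00). The lower the initial count, the higher the median ratio, over all 6 classes.

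The same order was found when apilimod was compared with the initial population. The medians were 3.34 in the lowest class (-0.29 to 4.11), then 1.91 (0.86 to 2.77), 0.52, 0.41, 0.16 and 0.10 in the highest. In DMSO against the initial population they were -0.34, -0.06, 0.17, 0.10, 0.17 and 0.14, with the 2 lowest classes below the rest and their intervals spanning 0. Because a ratio to the initial library contains the count used for sorting, the control guides were also sorted by their DMSO count, which is not in the ratio of apilimod to initial. The medians were 3.02 under 100 counts (n = 14 guides), 2.33 from 100 to under 200 (n = 20), 0.54 from 200 to under 500 (n = 45), 0.38, 0.19 and 0.14, in the same order as before. Gene-targeting guides sorted by DMSO count had medians of -0.47 and -0.26 in the 2 lowest classes. Sorted by initial count, their medians for this ratio were 0.62 and 0.21. Guides lost during culture also fall into the low DMSO classes, so the DMSO sorting does not set like guides beside the controls.

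Gene-targeting guides of the same initial count showed a smaller shift. For the ratio of apilimod to DMSO, the gene-targeting medians were 0.51 under 100 counts (n = 1618 guides) and 0.17 from 100 to under 200 (n = 2216 guides), against 3.86 and 1.60 for control guides. From 500 to under 1000 counts and above they were between -0.07 and -0.06. Under 200 initial counts, 23 of 32 control guides were over 2-fold higher in apilimod than in DMSO, 71.9% (53.3 to 86.3), as were 1253 of 3834 gene-targeting guides, 32.7% (31.2 to 34.2), and 15 of 62 tissue-restricted guides, 24.2% (14.2 to 36.7). The interval of the control guides lay above both others. From 2000 initial counts on, the control and gene-targeting medians both stood at -0.07, and 1 of 115 control guides and 3 of 1717 gene-targeting guides were over 2-fold higher.

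Single guides show the size of the shift. INTERGENIC976630 had 601 counts in apilimod, 77 in DMSO and 26 at day 0, and INTERGENIC471511 had 547, 28 and 27. INTERGENIC640569 had 473 counts in apilimod (exact 95% Poisson interval 431 to 518), 15 in DMSO (8.40 to 24.7) and 55 at day 0 (41.4 to 71.6), a ratio of 30.4 for apilimod over DMSO. These 3 guides were the rarest at day 0, and each was highest in apilimod.

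INTERGENIC1000768 had 593, 26 and 70 counts in apilimod, DMSO and the initial population, and INTERGENIC320869 had 753, 30 and 72. INTERGENIC1015251 had 1001, 70 and 79 counts, and INTERGENIC849939 had 957, 69 and 89. All 4 were lower in DMSO than at day 0, and 8 or more times higher in apilimod than at day 0 on the depth-normalized scale.

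INTERGENIC506388 had 1090 counts in apilimod, 76 in DMSO and 96 at day 0, and INTERGENIC632124 had 1757, 113 and 97. With these, 9 of the 12 rarest control guides had between 473 and 1757 counts in apilimod. The other 3 had 32 to 63 counts there. INTERGENIC180819 had 32 in apilimod, 184 in DMSO and 83 at day 0, INTERGENIC1035503 had 56, 126 and 66, and INTERGENIC334333 had 63, 20 and 82. No guide of the 12 lay between 63 and 473 counts in apilimod, whereas in DMSO all 12 had 15 to 184. That gap was picked after the counts were seen.

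The 20 guides with 100 to under 200 initial counts ranged from 88 to 1306 counts in apilimod with a median of 543.5, from 72 to 383 in DMSO with a median of 162.5, and from 101 to 192 at day 0 with a median of 151. In apilimod 11 of them had 534 to 1306 counts and 9 had 88 to 334. This cut was placed after the counts were seen, and a wider gap lay between 719 and 1135 counts. The highest log2 changes in apilimod among guides with at least 100 initial counts belonged to this class in 4 of 5 cases. Picking by a high ratio to day 0 favours a low initial count. INTERGENIC160615 had 1298, 118 and 123 counts in apilimod, DMSO and the initial population, INTERGENIC418931 1306, 158 and 130, INTERGENIC210678 1274, 122 and 134, and INTERGENIC487488 1250, 167 and 150. Their log2 changes in apilimod were 3.34, 3.27, 3.19 and 3.00, and in DMSO -0.15, 0.19, -0.22 and 0.06. These 4 guides ended within a narrow range of 1250 to 1306 counts.

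INTERGENIC548458 was the fifth, with 2128 counts in apilimod, 170 in DMSO and 261 at day 0. It also had the highest ratio of apilimod to DMSO above the minimum, 12.8-fold, followed by INTERGENIC160615 at 11.2-fold and INTERGENIC210678 at 10.6-fold. INTERGENIC289842 had 2041 counts in apilimod and 364 at day 0, with a log2 change of -0.96 in DMSO and a ratio of 10.5 for apilimod over DMSO, and INTERGENIC1375391 had 718, 72 and 101 counts, a ratio of 10.1. All 5 were below their initial level in DMSO, which a pick by the ratio to DMSO favours. For INTERGENIC160615 and INTERGENIC210678 the log2 changes in DMSO, -0.15 and -0.22, were near their counting errors of 0.19 and 0.18.

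Some guides of high initial count shifted as well. From 1000 initial counts on, 6 of 282 control guides were over 2-fold higher in apilimod than in DMSO, 2.13% (0.78 to 4.57). Of 8578 gene-targeting guides in this range 80 were, 0.93% (0.74 to 1.16), and the intervals overlapped. The control guides were led by INTERGENIC1255052 with 3787 counts in apilimod, 659 in DMSO and 1005 at day 0. INTERGENIC730614 followed with 4730, 1204 and 1577 (both picked after their values were seen). For comparison, INTERGENIC970305, the most abundant control guide in DMSO and at day 0, had 7794, 8603 and 7006 counts.

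Summed counts place the shift in the apilimod library. The 32 control guides under 200 initial counts summed to 20953 counts in apilimod, 4239 in DMSO and 3767 at day 0. At equal depth that is 5.07 times the DMSO sum and 5.37 times the initial sum in apilimod, and 1.06 times the initial sum in DMSO. The 3834 gene-targeting guides of this range summed to 738046, 490839 and 417312 counts, or 1.54 times the DMSO sum and 1.71 times the initial sum in apilimod. The 282 control guides from 1000 initial counts on summed to 671695, 690896 and 580008 counts, which is 1.00 times the DMSO sum and 1.12 times the initial sum in apilimod, with 1.12 times the initial sum in DMSO.

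The gain in counts was less uneven across the classes than the fold. At the depth of the initial library, the median gain of a control guide in apilimod was 528 counts under 100 initial counts, 386 from 100 to under 200, 161 from 200 to under 500, 248 from 500 to under 1000, 166 from 1000 to under 2000 and 192 from 2000 on. In DMSO the medians were -18.7, -6.71, 49.1, 49.6, 175 and 281, and thus followed the initial count. Gene-targeting guides gained a median of 22.4 and 24.5 counts in apilimod in the 2 lowest classes, and their medians in the 3 highest were -19.9, -64.7 and -129.

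Ranks among the control guides were kept in DMSO and less so in apilimod at the low end. Of the 50 least abundant control guides at day 0, 42 were among the 50 least abundant in DMSO and 22 in apilimod. Of the 50 most abundant, 40 were among the 50 most abundant in DMSO and 35 in apilimod. Across all control guides, log2 levels correlated with those at day 0 with a Pearson r of 0.77 in apilimod and 0.95 in DMSO. Over all gene-targeting guides r was 0.78 and 0.86. Among the 102 control guides under 500 initial counts, r was 0.14 in apilimod and 0.85 in DMSO (Spearman 0.04 and 0.84). For the 11477 gene-targeting guides under 500 it was 0.60 and 0.75. Gene-targeting guides of this class reach down to 0 initial counts and control guides to 26, so these r do not compare like ranges. From 500 counts on, r was 0.81 and 0.92 for 397 control guides, and 0.66 and 0.70 for 18221 gene-targeting guides. These are descriptions across guides of the same libraries, which share depth and amplification.

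Control guides far below their initial level were few. INTERGENIC825190 had 46 counts in apilimod, 72 in DMSO and 237 at day 0, with log2 changes of -2.39 and -1.79, the lowest in both cultures among guides with at least 100 initial counts. INTERGENIC1115261 came next in both, with 210, 485 and 995 counts and log2 changes of -2.29 and -1.12. INTERGENIC598660 had 509 counts in apilimod, 807 in DMSO and 1457 at day 0, and INTERGENIC323526 had 570, 1103 and 1527. In each of these 4 guides apilimod was the lowest of the 3 libraries and the initial population the highest. They were picked for low ratios to day 0, which favours a high initial count.

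Low ratios of apilimod to DMSO were found in other guides too. INTERGENIC1383866 had 83 counts in apilimod, against 221 in DMSO and 237 at day 0, and INTERGENIC413497 had 139, 440 and 328. INTERGENIC413497 had the lowest ratio of apilimod to DMSO above the minimum, a log2 ratio of -1.62. INTERGENIC1341138 had 776 counts in apilimod, 1675 in DMSO and 1048 at day 0, and INTERGENIC918346 had 293, 574 and 293. Among the 5 lowest in DMSO above that minimum were INTERGENIC989266, with 195 counts in apilimod, 94 in DMSO and 192 at day 0, and INTERGENIC865527, with 196, 173 and 328.

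Among control guides with at least 100 initial counts, the 5 highest log2 changes in DMSO belonged to guides with between 106 and 521 initial counts. A pick by high ratio to day 0 favours a low initial count. INTERGENIC1327380 led with 534 counts in apilimod, 383 in DMSO and 106 at day 0, a log2 change of 1.75 in DMSO. INTERGENIC982189 had 827, 878 and 395 counts, and INTERGENIC539892 had 1141, 591 and 281. INTERGENIC584987 had 660, 1077 and 521 counts and INTERGENIC1308164 had 237, 226 and 109. The log2 changes of these last 4 in DMSO were between 0.96 and 1.06. From 1000 initial counts on, 0 of 282 control guides were past 2-fold in either direction in DMSO. Of 8578 gene-targeting guides in this range, 11 were over 2-fold higher and 604 over 2-fold lower.

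Within classes of initial count, the spread of the control guides narrowed with abundance in both cultures. Against the initial population, the SD in apilimod was 2.02 under 100 counts, 1.30 from 100 to under 200, 1.07, 0.67, 0.45 and 0.31 from 2000 on. In DMSO it was 1.15, 0.62, 0.56, 0.44, 0.33 and 0.23. In the top class, where counting alone would give 0.04, the SDs were 8.16 and 6.23 times the counting floor, and gene-targeting guides of that class had 0.61 and 0.55. The apilimod SD was above the DMSO SD in all 6 classes.

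The width of the control distribution sets how many gene-targeting guides fall outside it. In apilimod 14.3% of the 29698 gene-targeting guides lay below the central 95% of the control guides and 0.67% above it. In DMSO 12.8% lay below and 4.19% above. Guides against 20 genes of nucleotide synthesis, among them CAD, DHODH and UMPS of pyrimidine synthesis and TYMS, the thymidylate synthase, served as a depleted comparison, and 73.5% of their 200 guides lay below the control range in apilimod and 73.0% in DMSO. Their median log2 changes were -1.63 and -1.78, that is 1.87 and 1.92 below the control medians. This list was chosen with earlier results of these data known, so its depletion is no separate result.

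With control and gene-targeting guides of at least 1000 initial counts only, the central 95% of 282 control guides narrowed to -0.66 to 0.98 in apilimod and to -0.48 to 0.71 in DMSO. Of 8578 gene-targeting guides 15.4% then lay below it in apilimod and 17.4% in DMSO. For the ratio of apilimod to DMSO the control range was -0.82 to 3.23 over all guides and -0.68 to 0.82 from 1000 counts on, and 1.03% and 1.87% of gene-targeting guides lay above it. The upper limit of that ratio was thus set by control guides of low initial count.

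The study's methods removed guides under 100 initial counts. That minimum takes out 12 control guides and leaves 487. The methods then also dropped genes left with too few distinct guides, and each control name here holds 1 guide. Whether that second rule was applied to the controls was not tested, so 487 is the count after the first rule only. The guides on both sides of the minimum of 100 were higher in apilimod than in the initial population. Just under it, INTERGENIC506388 and INTERGENIC632124, at 96 and 97 initial counts, had 1090 and 1757 counts in apilimod. Just over it, INTERGENIC1375391 and INTERGENIC1327380, at 101 and 106, had 718 and 534.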

How the data were processed

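The authors deposited counts of reads for each guide, not normalized, in 3 libraries. The submitters' notes and the study's methods name cutadapt 4.1 for trimming both mates, which were then pooled, Bowtie2 2.4.5 for alignment to guides flanked by vector, and MAGeCK 0.5.9.5 for counting. Both mates of a fragment may therefore be counted. The notes list bcl2fastq too. Guides carry no molecular identifiers, and intervals cover counting error only. The table of the whole series held the same counts as the per-library files.

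Counts of all 499 control guides were used unfiltered, and no column of another series was present. A pseudocount of 1 was added, the sum divided by the library total, and log2 ratios taken. Medians have distribution-free binomial 95% intervals over guides, and shares have exact Clopper-Pearson intervals. With 1 library per group no count model was fitted. Calculations used Python 3.11.15, numpy 2.4.6, pandas 2.3.3 and scipy 1.17.1, and the summaries were tested on simulated data. Named guides are the 5 highest and 5 lowest per comparison with at least 100 initial counts, all guides under 100, and the 5 nearest the median. Members and lists were chosen with earlier results of these data known. The fold of 2, the pseudocount, the scaling and the count minimum were varied.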

Additional observations from a re-analysis of the deposited data

How the results depend on the processing

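Of 228 values recomputed under other settings, 186 stayed within the interval of the reported median or within 1.5 times the reported SD or count. For apilimod against the initial population, a minimum of 300 counts left an SD of 0.53 with 32 guides over 2-fold higher, and a minimum of 1000 left a median of 0.13, an SD of 0.40, 7 guides higher and 2 lower. For apilimod against DMSO, a minimum of 300 left an SD of 0.57 with 30 guides higher and 3 lower, and a minimum of 1000 a median of -0.043, an SD of 0.41, 6 higher and 1 lower. For DMSO against the initial population, minimums of 100, 300 and 1000 left 2, 1 and 0 guides higher and 4, 2 and 0 lower. These minimums test fewer guides by construction. Of 8578 gene-targeting guides from 1000 initial counts on, 0.45% were over 2-fold higher and 8.74% lower in apilimod against the initial population. For apilimod against DMSO these shares were 0.93% and 1.20%, and for DMSO against the initial population 0.13% and 7.04%. Shares of other guides at minimums of 100 and 300 were not computed.

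The SD from the interquartile range was 0.48 for apilimod against the initial population and 0.46 for apilimod against DMSO. At 1.5-fold, 127 guides were higher and 27 lower in apilimod against the initial population, 63 and 22 in DMSO, and 38 were lower in apilimod against DMSO. At 4-fold the counts were 31 and 2, 0 and 1, and 29 and 1 in these comparisons. Shares of all guides at these thresholds were not computed. Gene-targeting counts over 4-fold higher than day 0 are given above by range of initial count. For apilimod against DMSO, 694 of 3834 gene-targeting guides under 200 initial counts were over 4-fold higher, beside 17 of 32 control guides. From 200 on, 203 of 25864 were, beside 12 of 467. The 1.5-fold counts and the lower counts at 4-fold have no such background and are not read as results about the control guides.

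Scaling to the median ratio of the tissue-restricted guides gave medians of 0.049 in DMSO and 0.096 for apilimod against DMSO, with 2 guides over 2-fold higher in DMSO. In classes of initial count this scaling gave DMSO medians of 0.0078 from 500 to under 1000, 0.080 from 1000 to under 2000 and 0.052 from 2000 on, and apilimod against DMSO medians of 0.054 from 1000 to under 2000 and 0.011 from 2000 on, both with their sign turned. Scaling to the median ratio of all guides also turned the sign of the apilimod against DMSO median from 1000 to under 2000, to 0.011. In classes of apilimod count the DMSO medians were -0.37 from 100 to under 200 (n = 7 guides) and 0.0043 from 200 to under 500 (n = 34 guides). The cause was not tested for the scaling and class changes. The 2 lowest classes kept the highest medians in apilimod under each pseudocount, scaling and sorting tried. No paired analysis was possible because each group holds 1 library, and no library could be left out for the same reason.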
